A study of Homo sapiens with 24 samples.

Results

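The SLC25 genes encode the mitochondrial carriers, the largest family of human solute transporters and the main route by which nucleotides, carboxylic acids, amino acids, cofactors and iron cross the inner mitochondrial membrane. They were chosen by name: all protein-coding genes whose symbol begins with SLC25, after the Ensembl IDs of the count table were paired with symbols. That gave 48 genes of 58676 gene IDs by a rule that reads no measured value, though the family itself was picked with earlier results of these data known. Of the 48, 42 passed the filter on low counts and were tested among 17327 genes. The other 6 (SLC25A2, SLC25A21, SLC25A31, SLC25A47, SLC25A48 and SLC25A52) had at most 9 counts in every library, and SLC25A31, the germ-line ADP/ATP carrier, had 0 counts in each. A further 50 IDs with an SLC25 symbol are pseudogenes or non-coding RNAs and are not members.

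The transcripts were measured by RNA-seq in 4 human lines of diffuse large B cell lymphoma, a cancer of mature B cells: U-2932, SU-DHL-10, OCI-LY19 and OCI-LY3. Each line was sampled at 8 h of TAK-981, a small-molecule inhibitor of the SUMO-activating enzyme, and at 0 h, with 2 libraries for each line and time and 16 in all. All 4 lines are labelled wild type, each is a single established line, and no dose is given in the sources used here. No vehicle-treated cells at 8 h were analysed here, so the drug and 8 h of further culture cannot be told apart. Nothing in the labels says that the 2 libraries of a group came from separate cultures, and the p-values then measure the spread between libraries, which may be technical.

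Library totals ran between 16770677 and 24694466 gene counts, and the members together took between 0.266% and 0.374% of them. All 8 B cell markers examined were expressed in every library, with summed levels between 2201 and 7607 counts per 1000000 counts of the scaled library (CPM). The T and NK cell markers summed to between 0.744 and 4.86 CPM, with CD3D, CD3E, CD3G and CD2 under 1 CPM in every library. Monocyte markers summed to between 0.443 and 13.7 CPM. Epithelial, stromal and endothelial markers summed to 174 and 173 CPM at 8 h and 71.9 and 86.5 CPM at 0 h in OCI-LY19, to 126 and 121 CPM at 8 h and 99.1 and 79.2 CPM at 0 h in OCI-LY3, and to at most 12.4 CPM in the other lines. Of the 3 tested genes of that list, COL1A1 rose in OCI-LY19 (edgeR adjusted p = 2.98e-12) and OCI-LY3 (0.48, edgeR adjusted p = 2.59e-04) and fell in U-2932 (-1.28, edgeR adjusted p = 0.0312), while PECAM1 fell in OCI-LY19 (-1.97, edgeR adjusted p = 3.28e-04), and their part in the results was not tested. At 0 h, the OCI-LY3 libraries were closer to those of OCI-LY19 over all genes (r = 0.978) than any other pair of lines was (r between 0.817 and 0.878), and whether a label was exchanged or cells of these lines were mixed was not tested. The added spike-in RNAs took between 0.0435% and 0.0823% of counts in SU-DHL-10 and OCI-LY3 and between 0.382% and 0.620% in OCI-LY19 and U-2932. Mitochondrially encoded mRNAs took 3.30% and 3.58% of counts at 8 h in OCI-LY19, against 4.24% and 6.22% at 0 h. The U-2932 libraries had shares of 4.785% and 4.999% at 8 h, against 5.872% and 5.856% at 0 h. The lines SU-DHL-10 and OCI-LY3 ranged between 3.26% and 3.75% at 8 h, against 2.90% to 3.28% at 0 h.

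Carriers of this family are built from repeats of a pair of membrane helices and mostly exchange a solute of the matrix for a solute of the intermembrane space. The ADP/ATP and phosphate carriers supply the ATP synthase and export its product, while others link the citric acid cycle, the urea cycle, fatty acid oxidation, glutathione and the building of mitochondrial DNA and RNA to the cytosol. They are made on cytosolic ribosomes and brought into the inner membrane by the TOM complex, the small TIM chaperones and the TIM22 complex. Proliferating lymphoid cells use them to run respiration and to export citrate, aspartate and one-carbon units for growth.

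At 8 h of TAK-981, the carrier transcripts moved in different directions in different lines, and more of them moved in OCI-LY19 and U-2932 than in SU-DHL-10. In U-2932, 28 of the 42 tested members passed the test (66.7%, with 50.9% of all tested genes called), 11 higher and 17 lower, against 25.9% of all genes called higher and 25.0% lower. In OCI-LY19, 21 members passed (50.0%, with 39.4% of all genes), 10 higher and 11 lower, against 21.6% of all genes higher and 17.8% lower. In OCI-LY3, 13 members passed (31.0%, with 25.5% of all genes), 2 higher and 11 lower, against 13.0% of all genes higher and 12.5% lower. In SU-DHL-10, 6 members passed (14.3%, with 12.6% of all genes), 5 higher and 1 lower, against 6.30% of all genes higher and 6.27% lower. A member is said to have been called, to have risen or to have fallen where edgeR's quasi-likelihood test gave a Benjamini-Hochberg adjusted p, over all tested genes, under 0.05. The median log2 fold change of the members, 8 h over 0 h, was -0.17 in U-2932, -0.09 in OCI-LY19, -0.06 in OCI-LY3 and -0.07 in SU-DHL-10, with 0.00 for all tested genes in each line. These directions are relative to the bulk of genes. When libraries were scaled by their spike-in RNAs instead, all genes shifted in U-2932 by a median of 0.70. There 25 members were called higher and none lower, with 9049 of the 17327 tested genes called higher and 729 lower. In such bulk libraries the number of cells and the RNA in each cell cannot be told apart, and the sources used here do not say how the spike-in RNAs were added. The SU-DHL-10 count was 3 without its 8 h replicate 1.

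**Figure D1:**
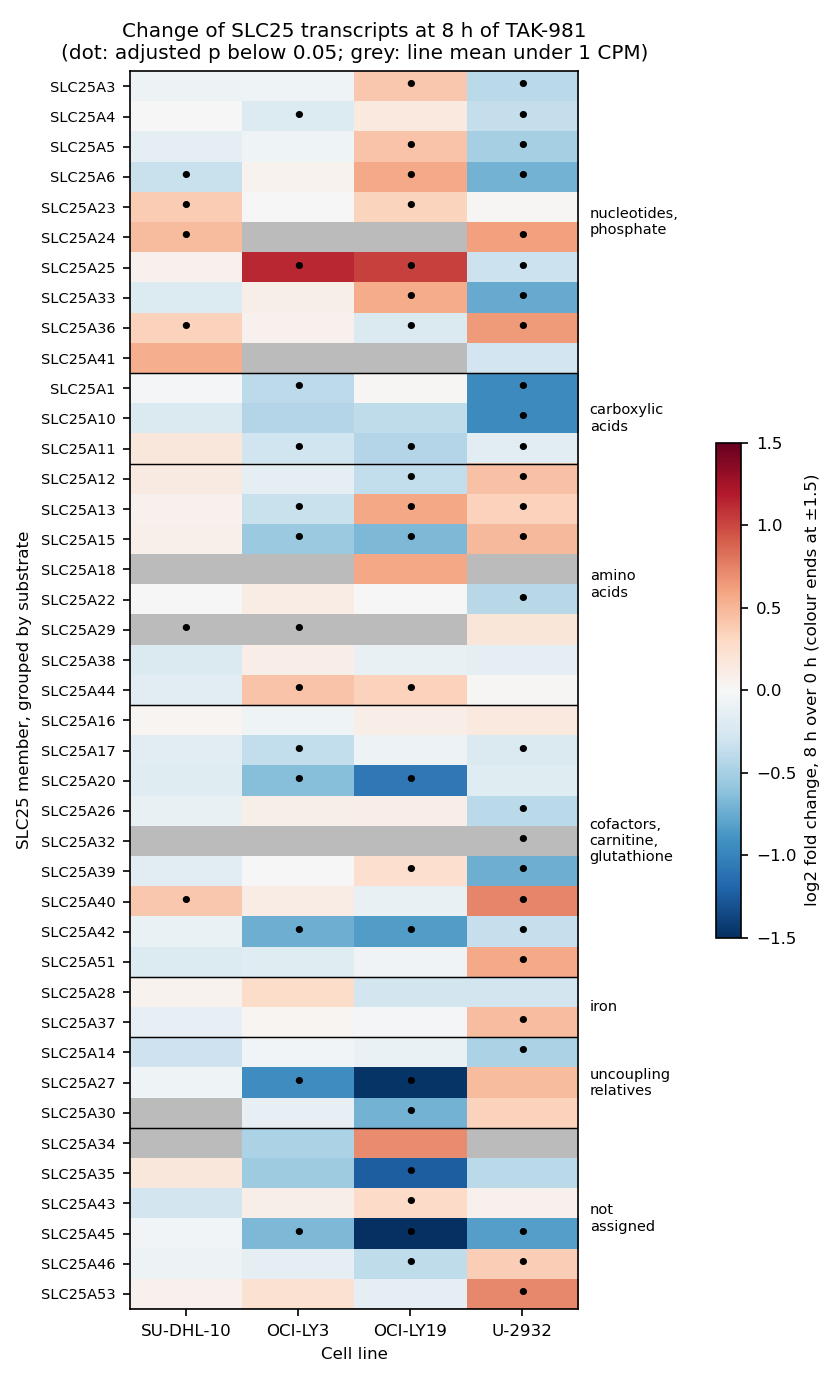
Log2 fold change at 8 h of TAK-981 over 0 h for 41 of the 42 tested SLC25 members (rows, grouped by what they carry) in each line (columns), scaled to the bulk of genes; red is higher at 8 h, blue lower, a dot marks a called member, and grey a member at under 1 CPM on average in that line. OCI-LY19 shows 10 members called higher and 11 lower, and U-2932 11 higher and 16 lower. With spike-in scaling U-2932 had 25 of the 42 members called higher and none lower, and 9049 of 17327 genes higher and 729 lower.

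Among the members, 36 were called in at least 1 line (85.7%, with 68.8% of all genes). Of the 42, 8 were called in 3 lines (19.0%, with 13.8% of all genes), 16 in 2 lines (38.1%, with 21.6%) and 12 in 1 line (28.6%, with 30.0%). Relative to the bulk of genes, 9 members were called higher only (21.4%, with 26.3% of all genes), 15 lower only (35.7%, with 24.6%), and 12 were called higher in one line and lower in another (28.6%, with 17.9%). Of the 14 members called in both OCI-LY19 and U-2932, 10 moved in opposite directions and 4 (28.6%) the same way, against 43.0% the same way among all genes called in both. Of the 10, 6 rose in OCI-LY19 and fell in U-2932, 42.9% of the 14 with 32.2% of all genes called in both (SLC25A3, SLC25A5, SLC25A6, SLC25A25, SLC25A33 and SLC25A39), though with spike-in scaling the 6 changes in U-2932 lay between -0.03 and 0.41. The other 4 (SLC25A12, SLC25A15, SLC25A36 and SLC25A46) fell in OCI-LY19 and rose in U-2932 (28.6%, with 24.8% of all genes called in both). Of the members called in both OCI-LY3 and OCI-LY19, 8 moved the same way (88.9%, with 93.7% of all genes called in both) and 1, SLC25A13, did not. SLC25A16, SLC25A18, SLC25A28, SLC25A34, SLC25A38 and SLC25A41 were called in no line.

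There were 10 tested carriers of nucleotides and phosphate. In OCI-LY19, 6 were called higher and 1 lower, with 39.4% of all genes called. In U-2932, 2 were called higher and 6 lower, with 50.9% of all genes called. Their median log2 fold changes were 0.36 in OCI-LY19 and -0.34 in U-2932. With spike-in scaling the counts were 5 higher and none lower in each of these lines. That scaling called 9049 of 17327 genes higher in U-2932, and 2119 higher and 2087 lower in OCI-LY19. The U-2932 count of 5 was thus no larger a share than that of all genes. SU-DHL-10 had 3 called higher and 1 lower, with 12.6% of all genes called, and OCI-LY3 1 of each, with 25.5%. The ADP/ATP and phosphate carriers moved apart between OCI-LY19 and U-2932. SLC25A6 encodes ADP/ATP translocase 3, which exports matrix ATP for cytosolic ADP. Its OCI-LY19 libraries were at 788 and 755 CPM at 8 h and 515 and 523 CPM at 0 h, a log2 fold change of 0.57 ± 0.06 (SE; n = 2 libraries a group; edgeR quasi-likelihood, Benjamini-Hochberg adjusted p = 4.29e-09; 0.34 with total-count scaling). U-2932 held it at 313 and 312 CPM at 8 h and 536 and 487 CPM at 0 h, a log2 fold change of -0.71 ± 0.06 (edgeR adjusted p = 2.63e-11). Both 8 h libraries thus lay above both 0 h libraries in OCI-LY19 and below them in U-2932, where the change was 0.02 with spike-in scaling. Levels in SU-DHL-10 were 447 and 436 CPM at 8 h and 593 and 516 CPM at 0 h, a fall by 0.33 ± 0.06 on the log2 scale (edgeR adjusted p = 4.14e-04; -0.18 and not called with spike-in scaling). The OCI-LY3 cells had 937 and 970 CPM of it at 8 h and 928 and 918 CPM at 0 h, a change of 0.05 that did not pass the test. The test of a difference between the 4 changes gave SLC25A6 the smallest p of the members (edgeR adjusted p = 4.71e-13, 3 degrees of freedom).

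SLC25A5, which encodes ADP/ATP translocase 2, the form of proliferating cells, followed the same order of lines. It had 340 and 345 CPM at 8 h and 254 and 254 CPM at 0 h in OCI-LY19 (log2 fold change 0.43 ± 0.06, edgeR adjusted p = 4.93e-07; 0.19 with total-count scaling). It had 294 and 312 CPM at 8 h and 442 and 415 CPM at 0 h in U-2932 (-0.50 ± 0.06, edgeR adjusted p = 1.45e-08; 0.23 with spike-in scaling). The groups did not overlap in either line. Its SU-DHL-10 libraries were at 585 and 576 CPM at 8 h and 666 and 622 CPM at 0 h, and in OCI-LY3 479 and 492 CPM at 8 h and 491 and 520 CPM at 0 h. The 8 h libraries lay below the 0 h ones in SU-DHL-10 and overlapped with them in OCI-LY3, and neither change (-0.15 and -0.06) passed the test. SLC25A4, the translocase of heart and muscle, fell in U-2932, with 65.6 and 65.5 CPM at 8 h and 83.2 and 84.6 CPM at 0 h (-0.36 ± 0.08, edgeR adjusted p = 1.74e-04; 0.37 with spike-in scaling). Its call in OCI-LY3 (-0.21, edgeR adjusted p = 0.0447) was lost under DESeq2, under RLE scaling and without OCI-LY3 0 h replicate 2 or 8 h replicate 1 (-0.14 each), among other single libraries.

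SLC25A3 imports phosphate, and copper, into the matrix. It had 548 and 555 CPM at 8 h and 449 and 385 CPM at 0 h in OCI-LY19, a log2 fold change of 0.40 ± 0.06 (edgeR adjusted p = 4.75e-06; 0.16 with total-count scaling). It had 404 and 401 CPM at 8 h and 539 and 522 CPM at 0 h in U-2932, a change of -0.40 ± 0.06 (edgeR adjusted p = 3.27e-06; 0.33 with spike-in scaling). The groups overlapped in neither line. In SU-DHL-10 and OCI-LY3 the changes were -0.08 and -0.06 and did not pass the test. SLC25A3, SLC25A5 and SLC25A6 together took 52.9% ± 0.0736 of all reads counted for the members at 8 h in OCI-LY19, against 44.5% ± 0.261 at 0 h (SD, n = 2 libraries each). In U-2932 they took 40.7% ± 0.336 at 8 h and 47.1% ± 1.19 at 0 h. This share is within the members and does not depend on how libraries are scaled, though it is a share of reads, not of molecules, since reads were not divided by transcript length. In SU-DHL-10 it was 42.2% at 8 h, against 45.8% at 0 h, and in OCI-LY3 56.8% at 8 h, against 56.1% at 0 h.

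SLC25A33 and SLC25A36 both carry pyrimidine nucleotides into mitochondria, where they feed the making of mitochondrial RNA and DNA, and their transcripts moved apart. SLC25A33 had 74.6 and 78.2 CPM at 8 h and 49.5 and 54.3 CPM at 0 h in OCI-LY19 (log2 fold change 0.56 ± 0.08, edgeR adjusted p = 5.07e-07; 0.32 with total-count scaling). In U-2932 it had 39.7 and 39.9 CPM at 8 h and 70.7 and 64.0 CPM at 0 h (-0.76 ± 0.08, edgeR adjusted p = 1.04e-09; -0.03 with spike-in scaling). The groups did not overlap in either line. Levels in SU-DHL-10 were 96.9 and 96.4 CPM at 8 h and 107 and 116 CPM at 0 h, and in OCI-LY3 62.4 and 66.8 CPM at 8 h and 57.8 and 63.3 CPM at 0 h. Neither of those changes (-0.21 and 0.09) passed the test.

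SLC25A36 had 104 and 114 CPM at 8 h and 127 and 127 CPM at 0 h in OCI-LY19 (-0.22 ± 0.08, edgeR adjusted p = 0.0261). The U-2932 cells had 118 and 109 CPM of it at 8 h and 66.8 and 78.6 CPM at 0 h (0.64 ± 0.08, edgeR adjusted p = 2.99e-08). Its SU-DHL-10 libraries were at 104 and 102 CPM at 8 h and 87.3 and 74.9 CPM at 0 h (0.34 ± 0.08, edgeR adjusted p = 0.00305). SLC25A36 was thus lower at 8 h in OCI-LY19 and higher in the other 2 lines, with no overlap of groups in any of the 3. OCI-LY3 held it at 114 and 109 CPM at 8 h and 110 and 102 CPM at 0 h, a change of 0.07 that did not pass the test. The OCI-LY19 call was lost with spike-in scaling (-0.23) and without either 0 h library (-0.21 each) or 8 h replicate 1 (-0.15). The SU-DHL-10 call was lost without 0 h replicate 2 (0.24) or 8 h replicate 1 (0.32).

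The ratio of SLC25A36 counts to SLC25A33 counts within a library needs no scaling between libraries. In U-2932 it was 2.97 and 2.73 at 8 h, against 0.94 and 1.23 at 0 h. It was 1.40 and 1.45 at 8 h in OCI-LY19, against 2.56 and 2.33 at 0 h. The balance of reads between these genes therefore moved towards SLC25A36 in U-2932 and towards SLC25A33 in OCI-LY19, and in both lines the libraries of the 2 times did not overlap. In SU-DHL-10 the ratio was 1.08 and 1.05 at 8 h and 0.81 and 0.64 at 0 h, which also did not overlap. In OCI-LY3 it was 1.82 and 1.63 at 8 h and 1.91 and 1.62 at 0 h, which did.

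**Figure D2:**
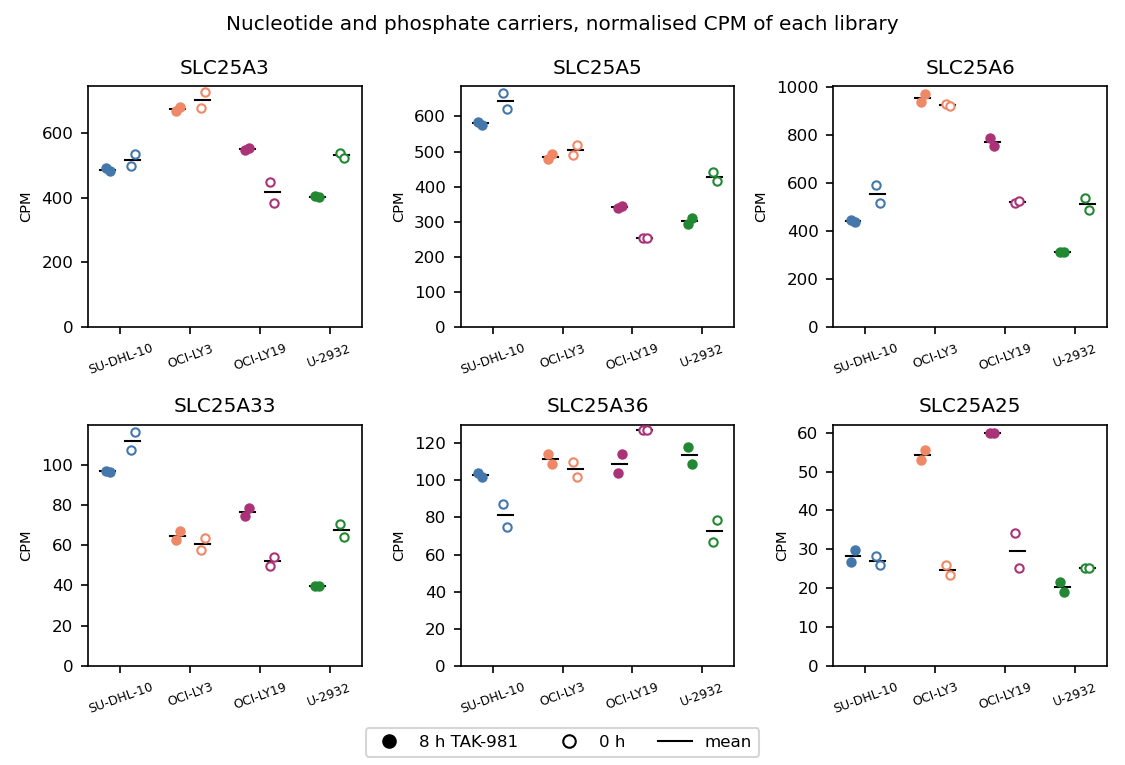
Normalised CPM of 6 nucleotide and phosphate carriers in each library, by line; filled points are 8 h of TAK-981, open points 0 h, and the short bar is the mean of the 2 libraries, and each panel's axis starts at 0. SLC25A6 sits at 788 and 755 CPM at 8 h and 515 and 523 CPM at 0 h in OCI-LY19, and at 313 and 312 CPM at 8 h and 536 and 487 CPM at 0 h in U-2932, where the change is 0.02 (log2) with spike-in scaling.

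SLC25A25, SLC25A23, SLC25A24 and SLC25A41 encode the ATP-Mg/phosphate carriers, which adjust the adenine nucleotide pool of the matrix. SLC25A25 had 52.9 and 55.6 CPM at 8 h and 26.0 and 23.4 CPM at 0 h in OCI-LY3, a log2 fold change of 1.13 ± 0.11 (edgeR adjusted p = 4.74e-10). It had 59.9 and 60.0 CPM at 8 h and 34.1 and 25.1 CPM at 0 h in OCI-LY19, a change of 1.02 ± 0.11 (edgeR adjusted p = 1.01e-09). In both lines each 8 h library lay well above each 0 h library, and the change was called under all 4 scalings, at 0.78 with total counts in OCI-LY19. Levels in SU-DHL-10 were 26.8 and 29.8 CPM at 8 h and 28.3 and 25.9 CPM at 0 h, a change of 0.06 that did not pass the test. In U-2932 it had 21.6 and 19.1 CPM at 8 h and 25.3 and 25.3 CPM at 0 h, a change of -0.32 ± 0.12 (edgeR adjusted p = 0.0222) that was lost without either 0 h library (-0.31 each) or 8 h replicate 2 (-0.22), and was 0.41 with spike-in scaling. The 4 changes differed (edgeR adjusted p = 4.76e-10), while the 0 h levels of the 4 lines, under 2-fold apart, did not pass the test of a difference (edgeR adjusted p = 0.120). The antisense transcript SLC25A25-AS1 had 34.3 and 31.6 CPM at 8 h and 35.4 and 28.5 CPM at 0 h in OCI-LY3, and 32.4 and 33.9 CPM at 8 h and 34.0 and 30.5 CPM at 0 h in OCI-LY19. The sources used here do not say whether reads were counted by strand.

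SLC25A23 rose in SU-DHL-10, with 299 and 286 CPM at 8 h and 236 and 214 CPM at 0 h (0.38 ± 0.07, edgeR adjusted p = 2.75e-04). It also rose in OCI-LY19, with 147 and 139 CPM at 8 h and 104 and 124 CPM at 0 h (0.33 ± 0.07, edgeR adjusted p = 4.55e-04), a change of 0.09 with total-count scaling and of 0.31, not called, with spike-in scaling. The groups did not overlap in either line, and in OCI-LY3 and U-2932 the changes were -0.01 and 0.02. SLC25A24 rose in U-2932, with 34.9 and 34.8 CPM at 8 h and 21.6 and 23.7 CPM at 0 h (0.62 ± 0.12, edgeR adjusted p = 7.83e-05). Its SU-DHL-10 libraries were at 29.5 and 26.1 CPM at 8 h and 21.4 and 18.5 CPM at 0 h (0.48 ± 0.12, edgeR adjusted p = 0.00801), a call lost without 0 h replicate 2 (0.38) or 8 h replicate 1 (0.39). SLC25A24 was at 0 counts in all 4 OCI-LY19 libraries, and in OCI-LY3 had 3 and 2 counts at 8 h and 0 counts in both 0 h libraries.

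Promoters annotated for SLC25A25, SLC25A33 and SLC25A36 are shown because these genes moved in opposite directions in different lines relative to the bulk of genes. Among the 40 members with an entry, they are also the ones that hold the full cAMP response element, TGACGTCA, the palindrome bound by CREB and ATF proteins. With spike-in scaling the U-2932 change was 0.41 and called for SLC25A25 and -0.03 for SLC25A33. The OCI-LY19 fall of SLC25A36 was not called with that scaling (-0.23). The sequences are RefSeq's, on GRCh38.p14, from 250 bases before to 50 after the annotated start, in 5′ to 3′ order. Capitals mark the cAMP response element, the E-box CACGTG bound by MYC and USF proteins, and the CCAAT box bound by NF-Y, read on both strands, so that ATTGG is a CCAAT box on the other strand. No base is shared between matches. The SLC25A25 promoter, which belongs to an internal start, lies at chr9:128098257-128098556 on the plus strand, that of SLC25A33 at chr1:9539215-9539514 on the plus strand, and that of SLC25A36 at chr3:140941586-140941885 on the plus strand. RefSeq's table lists 3 starts for SLC25A25, and the one shown, its first entry, lies 30275 bases downstream of the outermost start. The windows of the other 2 starts do not hold the element, and which start these cells use was not measured.
SLC25A25: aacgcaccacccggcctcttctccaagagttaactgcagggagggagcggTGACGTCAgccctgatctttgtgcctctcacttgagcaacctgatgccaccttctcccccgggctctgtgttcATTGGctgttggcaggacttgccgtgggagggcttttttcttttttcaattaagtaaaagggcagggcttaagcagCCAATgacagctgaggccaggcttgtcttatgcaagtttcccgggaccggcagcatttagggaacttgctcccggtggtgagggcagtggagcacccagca
SLC25A33: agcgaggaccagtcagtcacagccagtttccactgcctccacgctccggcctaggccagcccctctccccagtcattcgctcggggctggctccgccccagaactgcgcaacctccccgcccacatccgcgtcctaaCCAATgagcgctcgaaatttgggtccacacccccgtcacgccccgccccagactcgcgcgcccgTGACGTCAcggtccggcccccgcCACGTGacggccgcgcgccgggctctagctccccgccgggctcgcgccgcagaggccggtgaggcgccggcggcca
SLC25A36: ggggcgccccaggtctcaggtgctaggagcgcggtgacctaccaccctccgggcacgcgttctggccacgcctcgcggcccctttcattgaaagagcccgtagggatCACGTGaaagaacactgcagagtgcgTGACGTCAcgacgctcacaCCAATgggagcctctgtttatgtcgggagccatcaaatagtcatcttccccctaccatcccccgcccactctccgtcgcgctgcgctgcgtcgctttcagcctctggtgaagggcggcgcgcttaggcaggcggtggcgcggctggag

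The cAMP response element begins 200 bases before the start in SLC25A25, 117 before it in SLC25A36 and 49 before it in SLC25A33. It was found in 3 of the 40 member promoters (7.50%) and in 1.98% of all 27195 promoters of the same length, 1 window a gene. Over all windows listed for a gene it was found in the same 3 members and in 2.25% of all genes. The E-box was found in 7 member promoters (17.5%, against 7.45% of all), and the CCAAT box in 19 (47.5%, against 35.7% of all). The motif of NRF1, a regulator of nuclear genes for mitochondrial proteins, was searched as a pattern that leaves a base free. This pattern is not a palindrome, and it was found in 5 (12.5%, against 6.30% of all). The ETS motif CCGGAAGT was found in 3 (7.50%, against 4.45% of all) and the C/EBP-ATF element TGATGNAA in 1 (2.50%, against 3.67% of all). Each was read on both strands. The promoters of SLC25A33 and SLC25A36 hold the same 3 kinds of match, in another order. Their transcripts moved in opposite directions in OCI-LY19 and in U-2932 relative to the bulk of genes. With spike-in scaling SLC25A33 was at -0.03 in U-2932, and the OCI-LY19 fall of SLC25A36 (-0.23) was not called. These matches are descriptions of the letters, and no binding was measured.

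The 3 carriers of carboxylic acids were called lower or not at all relative to the bulk of genes, though with spike-in scaling SLC25A11 was called higher in U-2932 (0.56). SLC25A1 exports citrate, the source of cytosolic acetyl-CoA for lipid synthesis. U-2932 held it at 41.2 and 45.5 CPM at 8 h and 82.9 and 84.2 CPM at 0 h, a log2 fold change of -0.95 ± 0.08 (edgeR adjusted p = 1.76e-12; -0.22 and not called with spike-in scaling). Levels in OCI-LY3 were 93.8 and 99.4 CPM at 8 h and 124 and 130 CPM at 0 h, a change of -0.39 ± 0.07 (edgeR adjusted p = 6.97e-05; -0.14 and not called with spike-in scaling). The groups lay well apart in both lines. The SU-DHL-10 cells had 113 and 106 CPM of it at 8 h and 116 and 106 CPM at 0 h, and in OCI-LY19 53.1 and 51.2 CPM at 8 h and 51.0 and 52.0 CPM at 0 h. The groups overlapped there, with changes of -0.02 and 0.02, and the 4 changes differed (edgeR adjusted p = 2.55e-09).

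SLC25A10, the dicarboxylate carrier, exchanges malate and succinate for phosphate. Its U-2932 libraries were at 2.43 and 2.57 CPM at 8 h and 5.42 and 4.34 CPM at 0 h (-0.96 ± 0.22, edgeR adjusted p = 4.94e-04; -0.23 and not called with spike-in scaling). It had 10.1 and 10.0 CPM at 8 h and 11.8 and 11.6 CPM at 0 h in SU-DHL-10. It had 6.60 and 5.68 CPM at 8 h and 9.81 and 6.75 CPM at 0 h in OCI-LY3, and 3.43 and 3.42 CPM at 8 h and 4.62 and 4.28 CPM at 0 h in OCI-LY19. Both 8 h libraries lay below both 0 h libraries in all 4 lines relative to the bulk of genes. The changes in SU-DHL-10 (-0.22), OCI-LY3 (-0.44) and OCI-LY19 (-0.38) did not pass the test. SLC25A11, the oxoglutarate carrier of the malate-aspartate shuttle, had 50.8 and 47.4 CPM at 8 h and 67.7 and 66.0 CPM at 0 h in OCI-LY19 (-0.44 ± 0.07, edgeR adjusted p = 8.00e-06). In OCI-LY3 it had 59.9 and 63.1 CPM at 8 h and 72.7 and 79.1 CPM at 0 h (-0.30 ± 0.07, edgeR adjusted p = 0.00195), a call lost with spike-in scaling (-0.05) and without OCI-LY3 0 h replicate 2 (-0.24). Levels in SU-DHL-10 were 111 and 115 CPM at 8 h and 103 and 98.1 CPM at 0 h, higher at 8 h by 0.17 on the log2 scale without passing the test. Its call in U-2932 (-0.17, edgeR adjusted p = 0.0475) was lost when any single library of the 16 was left out (-0.18 to -0.15).

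Of the 8 tested amino acid carriers, 3 were called higher and 1 lower in U-2932 (50.0%, with 50.9% of all genes). The OCI-LY19 counts were 2 higher and 2 lower (50.0%, with 39.4%), and those of OCI-LY3 1 higher and 3 lower (50.0%, with 25.5%). In SU-DHL-10 the called share was 12.5%, with 12.6% of all genes. Spike-in scaling gave 6 higher and none lower in U-2932, where it called 9049 of 17327 genes higher and 729 lower. SLC25A15 had the largest called change at 5 CPM or more. It exchanges ornithine and citrulline for the urea cycle and for polyamine synthesis. The OCI-LY19 cells had 28.2 and 28.8 CPM of it at 8 h and 45.7 and 44.7 CPM at 0 h (-0.67 ± 0.10, edgeR adjusted p = 1.42e-06). Its OCI-LY3 libraries were at 23.2 and 23.7 CPM at 8 h and 31.9 and 37.5 CPM at 0 h (-0.56 ± 0.10, edgeR adjusted p = 8.35e-05; -0.31 and not called with spike-in scaling). U-2932 held it at 11.2 and 10.9 CPM at 8 h and 7.48 and 8.20 CPM at 0 h (0.49 ± 0.13, edgeR adjusted p = 0.00214). SLC25A15 was thus lower at 8 h in OCI-LY3 and OCI-LY19 and higher in U-2932, with no overlap in any of these lines. Levels in SU-DHL-10 were 21.7 and 19.1 CPM at 8 h and 18.8 and 19.8 CPM at 0 h, which overlapped.

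SLC25A12 and SLC25A13 encode aralar and citrin, the calcium-sensitive aspartate/glutamate carriers. SLC25A12 had 33.4 and 32.8 CPM at 8 h and 43.1 and 42.7 CPM at 0 h in OCI-LY19 (-0.37 ± 0.08, edgeR adjusted p = 4.28e-04; -0.38 and not called with spike-in scaling). It had 37.4 and 41.6 CPM at 8 h and 29.6 and 28.5 CPM at 0 h in U-2932 (0.44 ± 0.09, edgeR adjusted p = 4.75e-05). The groups did not overlap in either line. SLC25A13 rose in OCI-LY19, with 5.65 and 4.77 CPM at 8 h and 3.67 and 3.31 CPM at 0 h (0.58 ± 0.16, edgeR adjusted p = 0.00502), though its call was lost with total-count scaling (0.34) and without 0 h replicate 2 (0.51) or 8 h replicate 1 (0.45). It rose in U-2932, with 30.4 and 30.4 CPM at 8 h and 21.6 and 26.0 CPM at 0 h (0.35 ± 0.10, edgeR adjusted p = 0.00377), a call lost without 0 h replicate 1 (0.23). In OCI-LY3 it had 9.58 and 9.48 CPM at 8 h and 11.2 and 12.9 CPM at 0 h, and its call there (-0.33, edgeR adjusted p = 0.0496) was lost under DESeq2, under RLE scaling and without OCI-LY3 0 h replicate 2 (-0.22), among other single libraries.

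SLC25A44 imports branched-chain amino acids. It rose in OCI-LY3, with 51.7 and 47.3 CPM at 8 h and 37.3 and 36.0 CPM at 0 h (0.43 ± 0.09, edgeR adjusted p = 3.67e-04). It rose in OCI-LY19, with 60.2 and 54.2 CPM at 8 h and 45.7 and 44.8 CPM at 0 h (0.34 ± 0.09, edgeR adjusted p = 0.00194), a call lost with total-count scaling (0.10) and without 8 h replicate 1 (0.27). The groups did not overlap in either line. The glutamate carrier SLC25A22 fell in U-2932, with 85.4 and 84.2 CPM at 8 h and 116 and 111 CPM at 0 h (-0.42 ± 0.08, edgeR adjusted p = 2.04e-05; 0.31 with spike-in scaling). SLC25A29, a carrier of basic amino acids whose annotated locus overlaps that of YY1, was measured at more than a few counts only in U-2932, with 11.3 and 12.1 CPM at 8 h and 11.5 and 9.16 CPM at 0 h. SLC25A38, which imports glycine for heme synthesis, lay between 43.6 and 65.3 CPM at 8 h and between 47.7 and 77.1 CPM at 0 h in all lines, with changes between -0.22 and 0.10 that did not pass the test. The calls of SLC25A29 in SU-DHL-10 (7 and 7 counts at 8 h, 1 and 1 at 0 h) and OCI-LY3 (2 and 0 counts at 8 h, 7 and 4 at 0 h) rest on these few reads.

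There were 10 tested carriers of cofactors, fatty acid derivatives and glutathione. In U-2932, 3 were called higher and 5 lower (80.0%, with 50.9% of all genes). The OCI-LY19 counts were 1 higher and 2 lower (30.0%, with 39.4%), and 3 were called lower in OCI-LY3 (30.0%, with 25.5%). Spike-in scaling gave 6 higher and none lower in U-2932 and called none in OCI-LY3. It called 9049 of 17327 genes higher and 729 lower in U-2932, and 2891 higher and 663 lower in OCI-LY3. SLC25A20 had the largest called fall at 5 CPM or more. It brings acylcarnitines into the matrix for fatty acid oxidation. Its OCI-LY19 libraries were at 15.5 and 15.3 CPM at 8 h and 33.2 and 31.8 CPM at 0 h, a log2 fold change of -1.07 ± 0.11 (edgeR adjusted p = 1.08e-09). OCI-LY3 held it at 11.4 and 13.2 CPM at 8 h and 17.4 and 21.1 CPM at 0 h, a change of -0.64 ± 0.12 (edgeR adjusted p = 1.18e-04; -0.38 and not called with spike-in scaling). The groups lay furthest apart in OCI-LY19 and did not overlap in either line. Levels in SU-DHL-10 were 19.9 and 17.5 CPM at 8 h and 20.9 and 21.4 CPM at 0 h, and in U-2932 25.5 and 27.3 CPM at 8 h and 30.0 and 29.8 CPM at 0 h. Both changes were -0.18 and did not pass the test, and that of U-2932 was 0.55 and called with spike-in scaling.

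SLC25A42 imports coenzyme A. It fell in OCI-LY19, with 6.04 and 6.48 CPM at 8 h and 12.3 and 9.98 CPM at 0 h (-0.84 ± 0.13, edgeR adjusted p = 4.44e-06). It fell in OCI-LY3, with 6.75 and 7.01 CPM at 8 h and 10.9 and 12.1 CPM at 0 h (-0.73 ± 0.14, edgeR adjusted p = 9.15e-05; -0.48 and not called with spike-in scaling). The groups did not overlap in either line. The U-2932 cells had 18.2 and 16.1 CPM of it at 8 h and 21.6 and 22.1 CPM at 0 h (-0.35 ± 0.11, edgeR adjusted p = 0.00886; 0.37 with spike-in scaling), a call lost without 0 h replicate 2 (-0.33) or 8 h replicate 2 (-0.26). In SU-DHL-10, which expressed it most, it had 65.2 and 61.1 CPM at 8 h and 69.9 and 65.3 CPM at 0 h, a change of -0.10 that did not pass the test.

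SLC25A17, the peroxisomal member of the family, which carries coenzyme A, FAD and NAD+, fell in OCI-LY3, with 38.1 and 39.0 CPM at 8 h and 48.3 and 51.7 CPM at 0 h (-0.37 ± 0.08, edgeR adjusted p = 5.84e-04; -0.12 and not called with spike-in scaling). It had 50.3 and 50.9 CPM at 8 h and 59.5 and 58.1 CPM at 0 h in U-2932 (-0.22 ± 0.08, edgeR adjusted p = 0.0210; 0.51 with spike-in scaling), a call lost without any single U-2932 library (-0.23 to -0.19). Its 8 h libraries lay below its 0 h libraries in SU-DHL-10 too, and overlapped with them in OCI-LY19. SLC25A51, the mitochondrial NAD+ carrier, rose in U-2932, with 14.6 and 16.8 CPM at 8 h and 10.1 and 11.0 CPM at 0 h (0.57 ± 0.14, edgeR adjusted p = 7.01e-04). SLC25A26, which imports S-adenosylmethionine, fell there, with 9.64 and 9.14 CPM at 8 h and 11.4 and 13.5 CPM at 0 h (-0.41, edgeR adjusted p = 0.0132; 0.31 with spike-in scaling), a call lost without 0 h replicate 2 (-0.28) or 8 h replicate 2 (-0.37).

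The paired glutathione carriers SLC25A39 and SLC25A40, of which SLC25A39 imports glutathione into the matrix, moved apart in U-2932. SLC25A39 had 153 and 159 CPM at 8 h and 264 and 253 CPM at 0 h there (-0.73 ± 0.07, edgeR adjusted p = 2.15e-11; -0.00 with spike-in scaling). SLC25A40 had 31.6 and 31.0 CPM at 8 h and 17.4 and 20.3 CPM at 0 h there (0.73 ± 0.10, edgeR adjusted p = 2.32e-07). SLC25A39 was lower and SLC25A40 higher in both 8 h libraries. In SU-DHL-10, SLC25A40 rose too, with 65.0 and 67.2 CPM at 8 h and 50.5 and 48.7 CPM at 0 h (0.41 ± 0.09, edgeR adjusted p = 0.00141), while SLC25A39 had 215 and 210 CPM at 8 h and 227 and 250 CPM at 0 h, a change of -0.17 that did not pass the test. In OCI-LY19, SLC25A39 had 267 and 260 CPM at 8 h and 233 and 209 CPM at 0 h (0.25 ± 0.06, edgeR adjusted p = 0.00171), a call lost with total-count scaling (0.02) and without 0 h replicate 2 (0.18). In OCI-LY3, SLC25A39 had 262 and 262 CPM at 8 h and 269 and 259 CPM at 0 h. The changes differed between lines for both genes (edgeR adjusted p = 4.88e-10 for SLC25A39 and 3.29e-05 for SLC25A40). SLC25A32, a folate and FAD carrier, had between 0 and 24 counts in a library, so its call in U-2932 (3 and 5 counts at 8 h, 0 and 0 at 0 h) gives no usable fold.

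Of the mitoferrins, which import iron for heme and iron-sulfur clusters, SLC25A37 rose in U-2932, with 60.2 and 62.6 CPM at 8 h and 42.8 and 46.6 CPM at 0 h (0.46 ± 0.08, edgeR adjusted p = 8.66e-06), while SLC25A28 had 24.7 and 23.4 CPM at 8 h and 21.8 and 17.8 CPM at 0 h in OCI-LY3, its largest change (0.28), and was called in no line. Among the relatives of the uncoupling proteins, SLC25A27 had 5.52 and 6.16 CPM at 8 h and 15.4 and 17.1 CPM at 0 h in OCI-LY19 (-1.47 ± 0.16, edgeR adjusted p = 4.51e-09). Its OCI-LY3 libraries were at 8.49 and 6.17 CPM at 8 h and 15.1 and 12.7 CPM at 0 h (-0.93 ± 0.17, edgeR adjusted p = 4.21e-05). SLC25A27 was thus lower in both 8 h libraries of both lines under every scaling used. In SU-DHL-10 it had 14.9 and 17.9 CPM at 8 h and 18.5 and 15.6 CPM at 0 h, and in U-2932 2.48 and 2.31 CPM at 8 h and 1.77 and 1.66 CPM at 0 h, and neither change passed the test. SLC25A30, another relative, fell in OCI-LY19, with 7.61 and 8.01 CPM at 8 h and 14.1 and 11.4 CPM at 0 h (-0.71 ± 0.18, edgeR adjusted p = 0.00142). SLC25A14 had 5.09 and 7.36 CPM at 8 h and 8.54 and 8.73 CPM at 0 h in U-2932 (-0.47, edgeR adjusted p = 0.0398; 0.26 with spike-in scaling), a call lost under DESeq2 and without either 0 h library (-0.48 and -0.45), 8 h replicate 1 (-0.22) or either SU-DHL-10 8 h library (-0.46 each).

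Among the members without an assigned solute here, SLC25A45 had the largest fall with at least 5 CPM. Levels in OCI-LY19 were 4.39 and 3.91 CPM at 8 h and 14.9 and 11.9 CPM at 0 h (-1.69 ± 0.17, edgeR adjusted p = 9.21e-10). The U-2932 cells had 8.51 and 9.57 CPM of it at 8 h and 17.9 and 14.4 CPM at 0 h (-0.83 ± 0.16, edgeR adjusted p = 3.43e-05; -0.10 and not called with spike-in scaling). Its OCI-LY3 libraries were at 6.15 and 5.93 CPM at 8 h and 9.70 and 9.59 CPM at 0 h (-0.67 ± 0.18, edgeR adjusted p = 0.00394; -0.43 and not called with spike-in scaling). No group overlapped with its counterpart in these 3 lines, while in SU-DHL-10 the libraries at 11.9 and 10.5 CPM at 8 h lay among those at 13.0 and 9.98 CPM at 0 h. The SLC25A45 locus overlaps that of FRMD8 in the annotation, and reads of overlapping genes may have been split. SLC25A46, an outer membrane member that takes part in mitochondrial fission and lipid transfer, had 75.8 and 75.8 CPM at 8 h and 96.0 and 102 CPM at 0 h in OCI-LY19 (-0.38 ± 0.08, edgeR adjusted p = 1.81e-04). U-2932 held it at 99.7 and 92.3 CPM at 8 h and 65.8 and 82.8 CPM at 0 h (0.37 ± 0.08, edgeR adjusted p = 2.38e-04). SLC25A35, whose locus overlaps that of RANGRF, had 2.52 and 1.66 CPM at 8 h and 4.77 and 5.20 CPM at 0 h in OCI-LY19 (-1.24 ± 0.28, edgeR adjusted p = 4.10e-04). SLC25A43 in OCI-LY19 (0.29, edgeR adjusted p = 0.0313) and SLC25A53 in U-2932 (0.72 ± 0.27, edgeR adjusted p = 0.0255) were called higher, and DESeq2 called neither. The SLC25A43 change was 0.06 with total-count scaling and 0.27 with spike-in scaling, and was called with neither. The SLC25A43 call was also lost without OCI-LY19 0 h replicate 1 (0.16), 8 h replicate 1 (0.34) or 8 h replicate 2 (0.26), and that of SLC25A53 without U-2932 0 h replicate 2 (0.40) or 8 h replicate 2 (0.54).

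In a model with 1 common change for the 4 lines, 8 members were called (19.0%, with 18.1% of all genes), 1 higher and 7 lower, against 10.0% of all genes higher and 8.09% lower. SLC25A45 fell by 0.80 ± 0.18 on the log2 scale (edgeR adjusted p = 0.00567), SLC25A20 by 0.52 ± 0.12 (edgeR adjusted p = 0.00646), SLC25A42 by 0.48 ± 0.10 (edgeR adjusted p = 0.00396) and SLC25A10 by 0.48 ± 0.12 (edgeR adjusted p = 0.0132). SLC25A1 fell by 0.33 ± 0.11 (edgeR adjusted p = 0.0457) and SLC25A17 by 0.21 ± 0.06 (edgeR adjusted p = 0.0205). These 6 fell relative to the bulk of genes: with spike-in scaling 5 of them lay between -0.51 and -0.06, SLC25A17 lay at 0.07, and none was called. SLC25A24 rose by 0.60 ± 0.16 (edgeR adjusted p = 0.0206), and was not called without SU-DHL-10 (0.72) or without U-2932 (0.55). It had at most 3 counts in any library of OCI-LY3 and OCI-LY19, so its common change says nothing of those lines.

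These common changes rest unevenly on the lines. For SLC25A10 and SLC25A17 the changes of the lines did not pass the test of a difference (edgeR adjusted p = 0.143 each), while for SLC25A1, SLC25A20, SLC25A42 and SLC25A45 they did. Without OCI-LY3 only SLC25A24 and SLC25A45 were called, 2 members against the 8 of the full fit. Without U-2932 the change of SLC25A1 was -0.13 and was not called. The lines with little spike-in RNA alone, SU-DHL-10 and OCI-LY3, gave 1 call (SLC25A17). OCI-LY19 and U-2932 alone gave 2 (SLC25A42 and SLC25A45), a split chosen after seeing the data. All-gene counts of the fits with fewer lines are not given here, so these losses cannot be set against those of all genes. Leaving out single libraries ended the SLC25A1 call for any OCI-LY3 or U-2932 library, SU-DHL-10 0 h replicate 1 and 8 h replicate 2, and OCI-LY19 8 h replicate 2 (-0.35 to -0.26). It ended the SLC25A17 call for any OCI-LY3 library (-0.20 to -0.18).

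**Figure D3:**
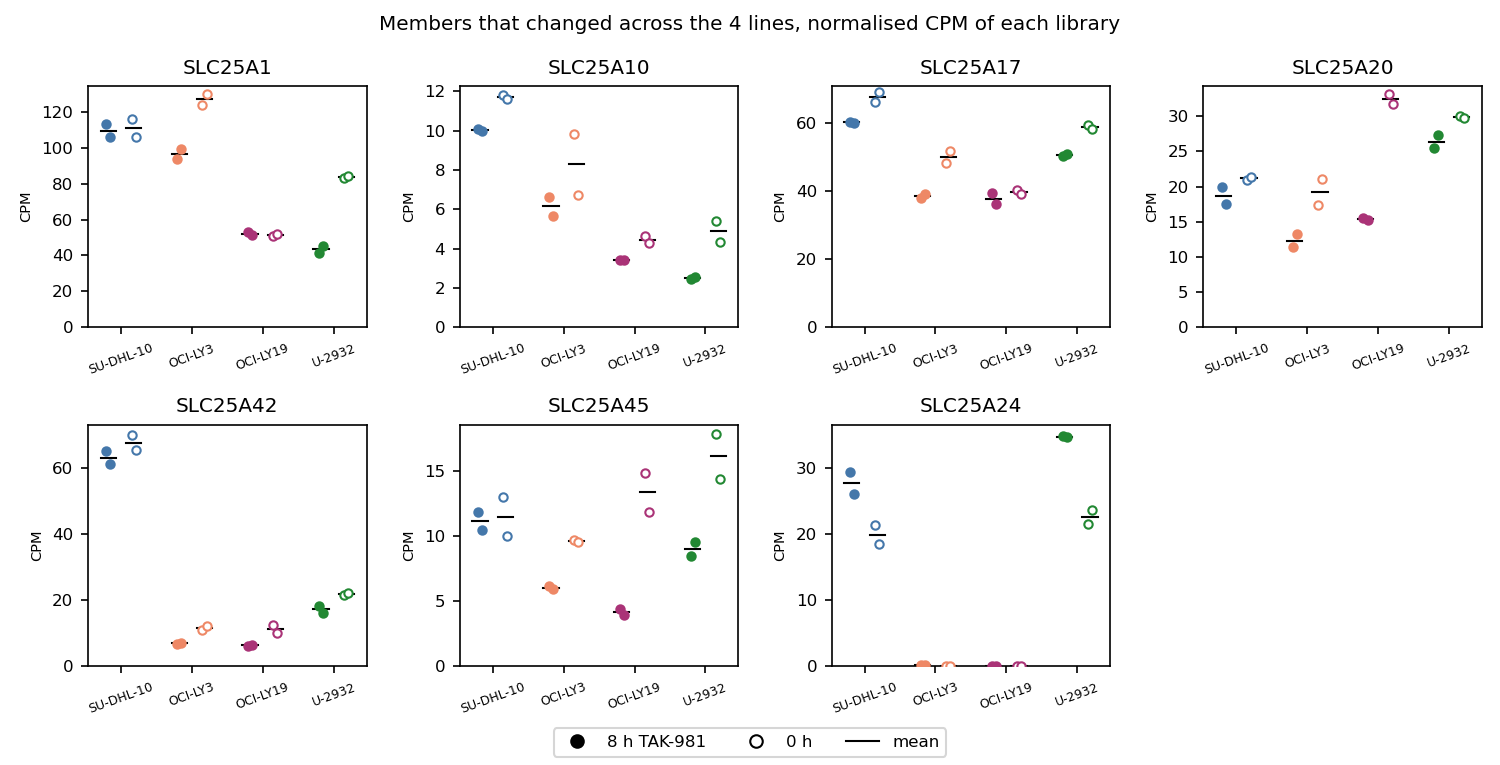
Normalised CPM of 7 of the 8 members called in the common model, in each library by line; filled points are 8 h of TAK-981, open points 0 h, and the short bar is the mean of the 2 libraries. SLC25A10 has both 8 h points below both 0 h points in all 4 lines relative to the bulk of genes. Taken line by line, its change was called only in U-2932. With spike-in scaling its common change was -0.22 (log2) and was not called. SLC25A20 is at 15.5 and 15.3 CPM at 8 h and 33.2 and 31.8 CPM at 0 h in OCI-LY19. SLC25A24 lies at or near 0 in OCI-LY3 and OCI-LY19.

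The test of the difference itself called 31 of the 42 members (53.5% of all genes were called). It depended little on scaling: spike-in scaling gave 28 members and total counts gave 32. The members with the smallest p were SLC25A6, SLC25A33, SLC25A25, SLC25A39, SLC25A5 and SLC25A1. With the exception of SLC25A1, each of these rose in OCI-LY19 and fell in U-2932 relative to the bulk of genes, and lay between -0.03 and 0.41 in U-2932 with spike-in scaling.

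Before treatment most genes differed between the lines, carriers among them: 39 of the 42 members were called different at 0 h (92.9%, with 87.3% of all genes). Of the tested members, 19 differed by less than 2-fold between the highest and lowest line, 14 by 2-fold or more and under 5-fold, and 9 by 5-fold or more. All genes were not sorted in this way, so whether this spread is particular to the members was not tested. SLC25A13, citrin, had 96.6 and 91.6 CPM in SU-DHL-10. U-2932 came next with 21.6 and 26.0 CPM, then OCI-LY3 with 11.2 and 12.9 CPM and OCI-LY19 with 3.67 and 3.31 CPM, an order in which no neighbouring lines overlapped (27.0-fold from highest to lowest, edgeR adjusted p = 1.80e-27). SLC25A42 averaged 67.6 CPM in SU-DHL-10, with U-2932 at 21.8, and with 10.9 and 12.1 CPM in OCI-LY3 overlapping 12.3 and 9.98 CPM in OCI-LY19 (edgeR adjusted p = 1.73e-22). SLC25A15 was highest in OCI-LY19, at 45.7 and 44.7 CPM, against 7.48 and 8.20 CPM in U-2932 (5.76-fold, edgeR adjusted p = 3.58e-19). SLC25A24 averaged 22.6 CPM in U-2932 and 19.9 CPM in SU-DHL-10, and had 0 counts in the 0 h libraries of OCI-LY3 and OCI-LY19. Taking the lowest line at 3 counts in its 2 libraries together, which is 0.0891 CPM, it was at least 254-fold higher in U-2932.

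**Figure D4:**
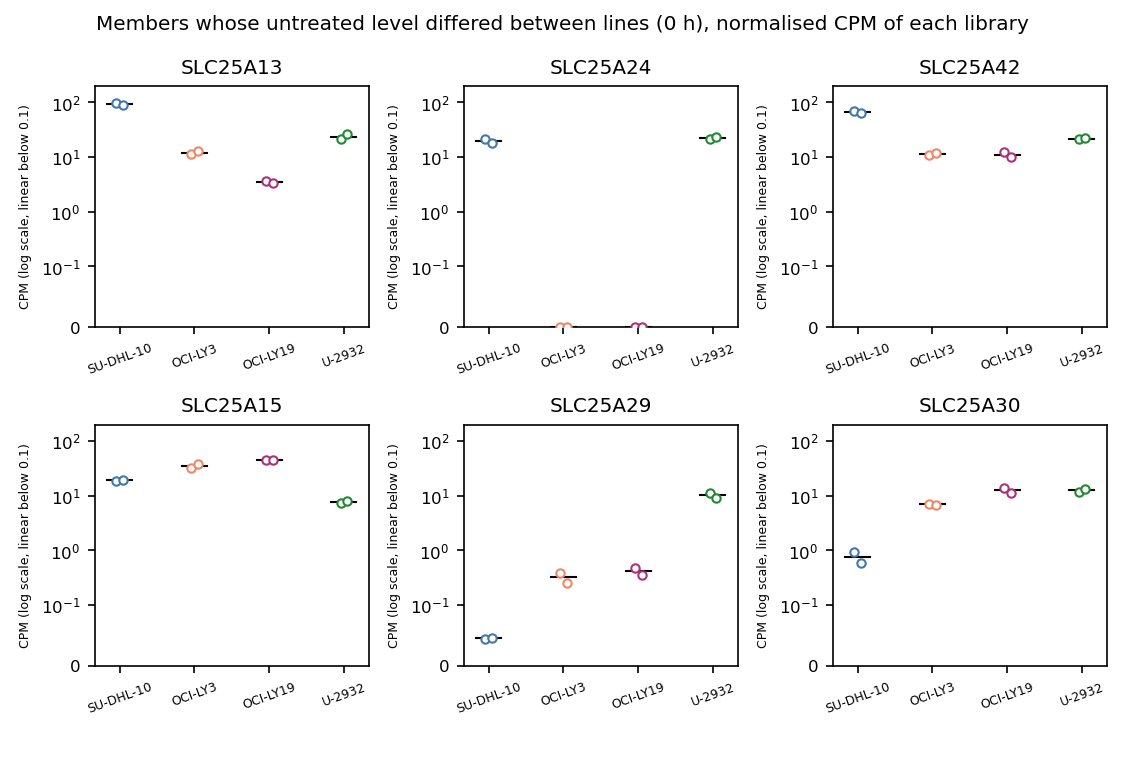
Normalised CPM at 0 h of 6 members whose untreated level differed between lines, in each library; the axis is logarithmic above 0.1 CPM and linear below it, and the short bar is the mean of the 2 libraries. SLC25A13 runs from 96.6 and 91.6 CPM in SU-DHL-10 down to 3.67 and 3.31 CPM in OCI-LY19, and SLC25A24 is at 0 in OCI-LY3 and OCI-LY19.

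SLC25A30 averaged 12.7 CPM in OCI-LY19 and 0.767 CPM in SU-DHL-10 (16.6-fold), and SLC25A27 averaged 17.1 CPM in SU-DHL-10, against 1.71 CPM for U-2932 (9.95-fold). SLC25A5 averaged 644 CPM in SU-DHL-10, the highest line, against 254 CPM for OCI-LY19, the lowest (2.54-fold). SLC25A25 and SLC25A39 had the smallest ratios of highest to lowest line of the tested members. Of the 39 members called different, SU-DHL-10 was the highest line for 16, OCI-LY3 for 9, U-2932 for 8 and OCI-LY19 for 6. The highest line was not counted over all genes.

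How many members count as higher or lower at 8 h depends on what libraries are scaled to. Relative to the bulk of genes, U-2932 had 11 members called higher and 17 lower. With spike-in scaling it had 25 higher and none lower, while 9049 of all 17327 tested genes were called higher and 729 lower. The medians were 0.55 over the members and 0.70 over all genes, so relative to that shift the members lay below the median of all genes. In OCI-LY3 spike-in scaling gave 3 higher and 1 lower (2891 and 663 of all genes, at a median of 0.20). It gave 4 higher and none lower in SU-DHL-10 (666 and 99, median 0.11) and 6 higher and 9 lower in OCI-LY19 (2119 and 2087, median 0.00). Total-count scaling left U-2932 with 12 higher and 11 lower (5253 and 3541 of all genes). It gave OCI-LY19 5 higher and 21 lower (1920 and 5294 of all genes, at a median of -0.20). With RLE scaling, which also takes the bulk of genes as its base, the OCI-LY19 count was the same as with TMM, at 10 higher and 11 lower. In SU-DHL-10, RLE gave 4 higher and 2 lower (1046 and 1137 of all genes). DESeq2 gave 4 higher and 5 lower there (954 and 1165 of all genes), against 5 and 1 with TMM (1092 and 1087 of all genes).

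**Figure D5:**
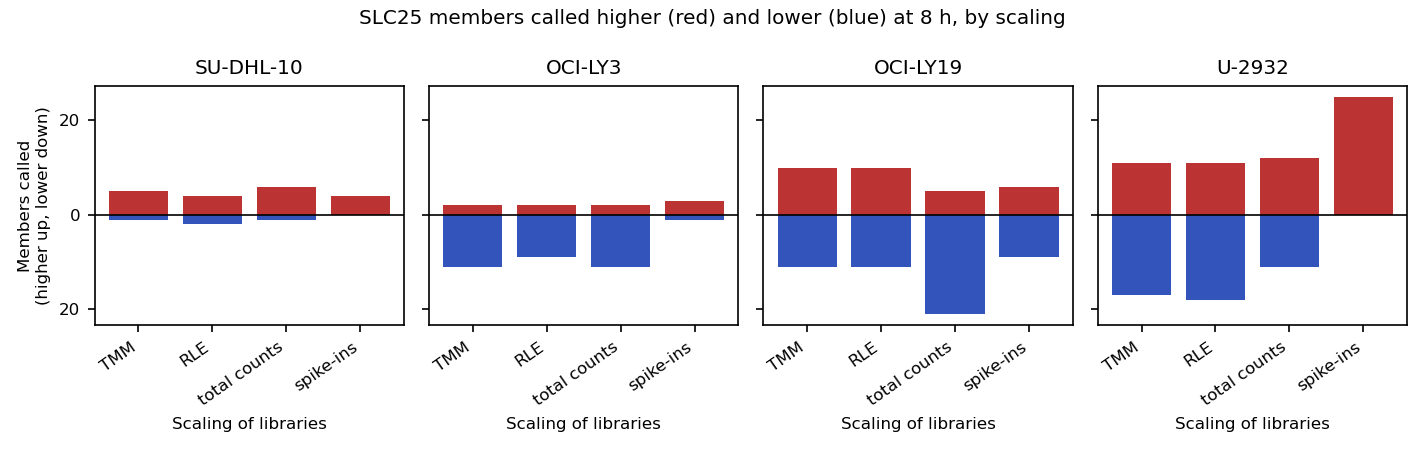
Number of SLC25 members called higher (red, upward) and lower (blue, downward) at 8 h of TAK-981 over 0 h in each line under 4 scalings of the libraries: TMM, RLE, total counts and spike-ins. In U-2932 the bars are 11 higher and 17 lower with TMM and 25 higher and none lower with spike-ins, and in OCI-LY19 10 higher and 11 lower with TMM and 5 higher and 21 lower with total counts. Among all 17327 tested genes, spike-ins called 9049 higher and 729 lower in U-2932, and total counts 1920 higher and 5294 lower in OCI-LY19.

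The machinery that imports the carriers was examined beside them. Of 15 tested import genes, 3 were called higher and 8 lower in U-2932 (73.3%, with 50.9% of all genes). Their median log2 fold change there was -0.37 relative to the bulk of genes. Spike-in scaling gave 7 higher and 1 lower there, with a median of 0.36. In OCI-LY19, 7 were called higher and 2 lower with a median of 0.22 (60.0%, with 39.4% of all genes). Total-count scaling gave 1 higher and 3 lower there, with a median of -0.02. In SU-DHL-10, 5 were called lower and none higher (33.3%, with 12.6% of all genes). OCI-LY3 had 3 called lower and none higher, a smaller share than the 25.5% of all genes called there. The common model called 1 lower and none higher (6.67%, with 18.1% of all genes). TOMM7, a small subunit of the outer membrane translocase, fell in U-2932 by 1.33 ± 0.11 on the log2 scale (edgeR adjusted p = 4.93e-12; -0.60 and still called with spike-in scaling). It rose in OCI-LY19 by 0.50 ± 0.11 (edgeR adjusted p = 3.48e-04; 0.26 and not called with total-count scaling). TIMM13, a chaperone of the intermembrane space, fell in U-2932 by 0.76 ± 0.08 (edgeR adjusted p = 1.69e-09; -0.03 with spike-in scaling). UCP2, a carrier of the same fold whose symbol keeps it out of the 48, fell in each line relative to the bulk of genes, by 0.45 ± 0.11 in both SU-DHL-10 and U-2932, 0.47 ± 0.11 in OCI-LY19 and 0.70 ± 0.11 in OCI-LY3, and in U-2932 it was at 0.27 with spike-in scaling. In the common model it fell by 0.52 ± 0.09 (edgeR adjusted p = 7.93e-04; -0.24 and not called with spike-in scaling).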

How the data were processed

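RNA-seq of 16 libraries (4 lines, 2 times, 2 libraries each) was analysed as a table of raw counts per Ensembl gene ID that the authors deposited, whole numbers with 92 spike-in RNAs listed among the genes. Poly(A) RNA was enriched and reverse transcribed, and PCR duplicates were removed, per the labels' protocols. The submitters' processing notes name Trimmomatic, Bowtie2, DESeq2, MACS2, bedtools, HOMER, GRCh38 and hg19 for the whole series, with no role or version, so the sources used here leave unsaid which aligner, annotation and strand setting gave the counts. The series also holds 8 ATAC-seq samples, which were not analysed here. One line is written SU-DHL4 in the series text and SU-DHL-10 in the labels, and the labels were followed. Every count column matched a sample.

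IDs were paired with symbols by a reference list of gene names, and 58207 of 58676 had one. Gene types and positions were then looked up by symbol in the RefSeq gene table. Spike-ins were left out of library sizes. Genes were filtered with edgeR's filterByExpr (17327 kept) and libraries scaled by TMM, and edgeR 4.0.16 (R 4.3.3) quasi-likelihood tests were fitted with 1 mean for each of the 8 groups (8 residual degrees of freedom, median coefficient of variation 8.5%), or with line and time terms for the common change (11 residual degrees of freedom). Benjamini-Hochberg adjustment ran over all tested genes, with a threshold of 0.05. CPM are counts per 1000000 of the TMM-scaled library. They are not divided by transcript length, so levels are compared between libraries and never between genes. The SE is the log2 fold change divided by the root of the F statistic. DESeq2 1.42.0, RLE, total-count and spike-in scaling, no filter, a mean of at least 5 CPM, a replicate block, single lines, and the leaving out of libraries and lines were the alternatives. The scripts were tested on simulated data.

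All members may be named. Values of each library are given at least for the members called in the common model, for up to 5 called members with the largest and 5 with the smallest change in each line at a mean of 5 CPM or more, for the 6 with the smallest p of the difference between lines, and for the 5 with the smallest p at 0 h. Of the genes these rules name, 1 member is not reported here, though it is in the counts. Members, lists and rules were chosen with earlier results of these data known. Motifs were searched in RefSeq's promoter table for GRCh38.p14. Of the 48 members, 30 overlap another annotated gene.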

Additional observations from a re-analysis of the deposited data

Results flagged for a closer look

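For 6 members the 8 h change differed between the 4 lines by edgeR's test of the difference itself (quasi-likelihood, 3 degrees of freedom, Benjamini-Hochberg adjusted over all tested genes). They are the 6 members with the smallest p of that test, and no explanation was examined. SLC25A6, ADP/ATP translocase 3, had an edgeR adjusted p of 4.71e-13, with changes of -0.71 in U-2932, 0.57 in OCI-LY19, 0.05 in OCI-LY3 and -0.33 in SU-DHL-10. SLC25A33, the pyrimidine nucleotide carrier, had an edgeR adjusted p of 8.04e-11, with changes of -0.76, 0.56, 0.09 and -0.21 in the same order of lines. SLC25A25, the ATP-Mg/phosphate carrier, had an edgeR adjusted p of 4.76e-10, with changes of -0.32, 1.02, 1.13 and 0.06. SLC25A39, the glutathione carrier, had an edgeR adjusted p of 4.88e-10, with changes of -0.73, 0.25, -0.01 and -0.17. SLC25A5, ADP/ATP translocase 2, had an edgeR adjusted p of 6.00e-10, with changes of -0.50, 0.43, -0.06 and -0.15. SLC25A1, the citrate carrier, had an edgeR adjusted p of 2.55e-09, with changes of -0.95, 0.02, -0.39 and -0.02. Each change is relative to the bulk of genes, and with spike-in scaling those in U-2932 were 0.02, -0.03, 0.41, -0.00, 0.23 and -0.22 in the order of genes above.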

How the results depend on the processing

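Of the 76 called changes of single members, 69 kept direction and call with DESeq2, 73 with RLE, 65 with total counts, 68 with no filter and 67 with the replicate block, and the rest were weaker. Spike-in scaling kept 34, weakened 29 and reversed 13: SLC25A11 (0.56), SLC25A14 (0.26), SLC25A17 (0.51), SLC25A22 (0.31), SLC25A25 (0.41), SLC25A26 (0.31), SLC25A3 (0.33), SLC25A4 (0.37), SLC25A42 (0.37), SLC25A5 (0.23) and SLC25A6 (0.02) in U-2932, SLC25A4 in OCI-LY3 (0.04) and SLC25A17 in the common model (0.07). Members called in OCI-LY3 numbered 4 with spike-in scaling, against 13, and all genes called there 3554, against 4420. In the common model 3 members were called with the replicate block, against 8. Over all 17327 genes that block called 1235, against 3141. Without OCI-LY3 the common model called 2 members, in SU-DHL-10 and OCI-LY3 alone 1, and in OCI-LY19 and U-2932 alone 2. All-gene counts of these reduced fits are not given here. The last 2 settings were chosen after seeing the data, and the cause was not tested. Same-numbered libraries did not deviate together over all genes (correlations between -0.012 and 0.034). That check gave no sign of pairing, but it compares a single deviation per line and time and cannot show that libraries were not paired. With 1 library left out the members called numbered 3 to 8 in SU-DHL-10, 10 to 13 in OCI-LY3, 18 to 21 in OCI-LY19, 21 to 27 in U-2932, 5 to 8 in the common model, 28 to 32 for the difference between lines and 38 to 40 at 0 h. SLC25A29 outside U-2932 and SLC25A32 were counted at 24 reads or fewer in a library, which limits their precision.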

Other observations

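Genes that work beside the carriers were examined too, on lists chosen with earlier results of these data known. MPC1, a subunit of the mitochondrial pyruvate carrier, which is not an SLC25 protein, rose in OCI-LY3 (0.63 ± 0.08, edgeR adjusted p = 9.51e-08) and OCI-LY19 (0.72 ± 0.08, edgeR adjusted p = 7.18e-09), and by 0.41 ± 0.09 in the common model (edgeR adjusted p = 0.00551). Of the 19 tested channels and carriers of other families, 1 was called higher and 6 lower in OCI-LY3 (36.8%, with 25.5% of all genes). The common model called 1 higher and 3 lower (21.1%, with 18.1%). The called shares were 52.6% in U-2932 (50.9% of all genes), 36.8% in OCI-LY19 (39.4%) and 0.00% in SU-DHL-10 (12.6%). With spike-in scaling there were 3 higher and 1 lower in OCI-LY3 and 6 higher and none lower in the common model. That scaling called 2891 of 17327 genes higher in OCI-LY3 and 3991 in the common model. MTHFD2, a mitochondrial enzyme of one-carbon metabolism, rose in OCI-LY3 (0.47 ± 0.06, edgeR adjusted p = 3.48e-07) and OCI-LY19 (0.67 ± 0.06, edgeR adjusted p = 9.40e-11) and fell in U-2932 (-0.23 ± 0.06, edgeR adjusted p = 0.00259; 0.50 with spike-in scaling). Of 17 tested enzymes on either side of the carriers, 10 were called higher and 2 lower in OCI-LY19 (70.6%, with 39.4% of all genes). In U-2932, 3 were called higher and 8 lower (64.7%, with 50.9%). The called shares were 35.3% in OCI-LY3 (25.5% of all genes), 5.88% in SU-DHL-10 (12.6%) and 5.88% in the common model (18.1%). With spike-in scaling the counts were 5 higher and none lower in OCI-LY19 and 11 higher and none lower in U-2932. That scaling called 2119 of 17327 genes higher in OCI-LY19 and 9049 in U-2932. Total counts gave 5 higher and 4 lower in OCI-LY19, with 1920 higher and 5294 lower among all genes.

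Of 11 tested regulators of mitochondrial biogenesis, 7 were called higher and 2 lower in OCI-LY19 (81.8%, with 39.4% of all genes). U-2932 had 6 higher and 1 lower (63.6%, with 50.9%), and OCI-LY3 3 higher and 2 lower (45.5%, with 25.5%). SU-DHL-10 had none higher and 3 lower (27.3%, with 12.6%). The common model called 1 higher and none lower (9.09%, with 18.1%). PPARGC1B, a coactivator of nuclear receptors and of NRF1 target genes, rose in U-2932 by 1.25 ± 0.10 (edgeR adjusted p = 4.36e-12). It fell in OCI-LY3 (-0.44 ± 0.08, edgeR adjusted p = 9.76e-05; -0.20 and not called with spike-in scaling) and OCI-LY19 (-0.26 ± 0.08, edgeR adjusted p = 0.0100; -0.27 and not called with spike-in scaling). GABPA, the DNA-binding subunit of the ETS factor GABP, rose in U-2932 by 0.91 ± 0.09 (edgeR adjusted p = 6.02e-11). GABPB1, its partner subunit, rose in OCI-LY19 by 0.91 ± 0.09 (edgeR adjusted p = 2.08e-10) and in OCI-LY3 by 0.34 ± 0.09 (edgeR adjusted p = 0.00487), and fell in SU-DHL-10 (-0.43 ± 0.09, edgeR adjusted p = 0.00151; -0.29 and not called with spike-in scaling). The GABPB1 change in U-2932 was 0.07 and not called, and 0.80 and called with spike-in scaling. Over these regulators spike-in scaling gave 4 higher and 1 lower in OCI-LY19 and 10 higher and none lower in U-2932. It called 9049 of 17327 genes higher in U-2932. Total counts gave 3 regulators higher and 4 lower in OCI-LY19, with 1920 higher and 5294 lower among all genes.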
